A study of Mus musculus with 4 samples.

Results

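Replication-dependent histone genes were taken as the genes whose symbols begin with Hist1h, Hist2h, Hist3h or Hist4h. They numbered 67 of 32272 genes, and 64 of 174339 peaks lay within 1 kb of their starts. The study sorted lineage-negative, cKit-positive bone marrow cells, a mix of hematopoietic stem and progenitor cells (HSPCs), from 8-week-old male C57BL/6 mice. In the ligature group (Lig), silk had been tied around molars for 14 days to induce periodontitis, and the control group (Ctrl) had no ligature. Marrow of 5 mice was pooled into 1 sample per group, and nuclei were profiled by multiome sequencing, which reads RNA (counted by molecular tags, UMIs) together with ATAC, the cuts of a transposase in accessible DNA, from each nucleus. Each of the 4 label groups, Ctrl or Lig by RNA or ATAC, held 1 sample, so there were no replicates and no p-values were computed. The matrix pooled both samples under barcode suffixes 1 and 2 that no label ties to a sample. The nuclei of each suffix are given as library 1 and library 2, which stand in no group, so differences of the libraries say nothing on ligature here.

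Histones package DNA into nucleosomes, whose core is built from H2A, H2B, H3 and H4, while the linker histone H1 binds the DNA between cores. Dividing cells make most of this protein during S phase from clustered, mostly intronless genes present in many near-identical copies. Their mRNAs typically end in a conserved stem-loop in place of a poly(A) tail. SLBP binds the stem-loop, and NPAT gathers at the histone clusters and drives their transcription. Because the assay captures RNA through poly(A), transcripts that end at the stem-loop are poorly sampled, and the values below describe the histone RNA that could be captured from nuclei.

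Sequence that fits the stem-loop, 2 arms of 6 bases around a loop of 4, was found in or within 100 bases past 65 of the 67 genes in GRCm38. It took 8 forms, of which the most common was held by 41 genes. The next was held by 9 and another by 8. They are shown because the 3′ end decides how such RNA is captured, with the pairing arms in capitals.
Most common form: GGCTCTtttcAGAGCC
Second form: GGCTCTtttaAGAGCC
Another form: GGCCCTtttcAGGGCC

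In Hist1h1b, the gene with the most UMIs, the most common form lay at chr13:21779837-21779852 on the minus strand, just past the end of the annotated gene. Hist2h2be and Hist1h2an held none of the forms in the searched span. In 38 of the 65 genes the annotated gene ended within 100 bases of the stem-loop, and in 27 it ran further. Genes of the second kind had a median of 140 UMIs over both libraries and those of the first kind 64. The range of each kind began at 0 and reached 1477 and 5107 UMIs, respectively, so the 2 kinds overlapped.

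RefSeq promoters of GRCm38.p6 were matched to 62 of the 67 genes. The 250 bases before the start are shown for 3 genes, all on the minus strand: the H1 gene with the most UMIs, an H2A gene that shares its promoter with an H2B gene, and the H4 gene under the peak with the most counts. Capitals mark 4 motifs on either strand. The TATA box was searched as TATAAA and the CCAAT box by its own letters. The octamer of H2B promoters was searched as ATTTGCAT, which reads ATGCAAAT from the other strand. The H1 box, found at linker histone genes, was searched as AAACACA.
Hist1h1b, chr13:21780626-21780875: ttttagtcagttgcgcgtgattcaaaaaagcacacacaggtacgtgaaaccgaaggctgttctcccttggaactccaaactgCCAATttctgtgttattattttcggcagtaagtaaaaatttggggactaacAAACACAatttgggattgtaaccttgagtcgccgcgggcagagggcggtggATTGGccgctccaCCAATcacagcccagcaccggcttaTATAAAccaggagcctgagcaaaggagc
Hist1h2ac, chr13:23683960-23684209: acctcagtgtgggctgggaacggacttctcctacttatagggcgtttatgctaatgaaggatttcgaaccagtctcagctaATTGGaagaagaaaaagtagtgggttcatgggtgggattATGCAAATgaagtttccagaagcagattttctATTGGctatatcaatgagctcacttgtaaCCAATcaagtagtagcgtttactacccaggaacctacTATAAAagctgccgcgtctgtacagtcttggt
Hist1h4a, chr13:23761250-23761499: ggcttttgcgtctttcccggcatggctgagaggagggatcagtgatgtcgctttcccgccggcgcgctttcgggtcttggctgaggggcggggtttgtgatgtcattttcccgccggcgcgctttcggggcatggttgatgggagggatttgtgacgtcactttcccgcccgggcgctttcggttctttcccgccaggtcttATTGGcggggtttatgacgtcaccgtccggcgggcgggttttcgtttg

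The families differed in these motifs. Over windows of 250 bases before to 50 after the start, CCAAT was found in 53 of 62 histone promoters (85.5%) and in 37.4% of the 32851 promoters of the same length. Of the 9 without it, all were H4 promoters, where 3 of 12 held it. TATAAA was found in 35 of 62 (56.5%) and in 13.6% of promoters at large. The octamer was found in 7 of 18 H2A and 6 of 16 H2B promoters and in no other family, beside 1.74% at large. The H1 box was found in 5 of 6 H1 promoters, 2 of 18 H2A and 2 of 16 H2B promoters, beside 7.18% at large. These counts describe letters in a window and not binding. RefSeq starts lay within 5 bp of the starts in the deposited annotation for 26 of 62 genes.

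After filters, library 1 held 5905 nuclei with 10294527 UMIs and 118239764 ATAC counts, and library 2 held 7714 nuclei with 12537328 UMIs and 128699726 ATAC counts. The libraries shared 72 barcode sequences. Genes at the ribosomal RNA locus took 43.0% of UMIs in library 1 and 53.2% in library 2, which lowers the share of other genes. Levels are therefore given as CPM, counts scaled to a total of 1000000 in a library or population, over all genes and, where stated, over genes outside this locus. Peak counts were scaled over all peaks in the same way (ATAC CPM). Brackets hold exact 95% intervals, Poisson for levels and conditional binomial for ratios, and cover counting error only.

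Histone genes summed to 10556 UMIs in library 1, or 1025 CPM [1006 to 1045]. They summed to 9313 UMIs in library 2, or 743 CPM [728 to 758]. Outside the ribosomal RNA locus these levels were 1800 [1766 to 1835] and 1586 CPM [1554 to 1618], which put library 1 above library 2 on both scales. The direction depended on the scaling, since the log2 ratio of the sum (library 2 to library 1, in CPM over all genes) was -0.47 while the median over genes that reached 20 UMIs in both libraries was -0.63, and relative to that median the sum was higher in library 2 by 0.17. The Hist1 cluster, whose 54 genes lie on chromosome 13, held 94.5% of histone UMIs in library 1 and 94.8% in library 2. The 10 Hist2 genes held 4.48% and 4.18%, and the remaining 3 genes of Hist3 and Hist4 under 1% per cluster.

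UMIs were spread unevenly over the genes. Of the 67, 62 had at least 1 UMI, 44 reached 20 UMIs in both libraries and 33 had at least 100 in all, while the 15 genes with the most UMIs held 80.9%. The 6 H1 genes held 43.3% of histone UMIs in library 1 and 52.0% in library 2. The 18 H2A genes held 26.3% and 21%, and the 18 H2B genes 12.6% and 11.3%. The 13 H4 genes held 9.96% and 8.09%, and the 12 H3 genes 7.87% and 7.62%. H1 thus held the largest share with the fewest genes in both libraries.

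Hist1h1b, a linker histone gene, had 2411 UMIs in library 1 and 2696 in library 2, which is 234 CPM [225 to 244] and 215 CPM [207 to 223]. Per kb of its longest annotated transcript, it had 6873 UMIs over both libraries, the highest of the histone genes on this scale. The other 4 linker histone genes with UMIs in each library followed at a distance. Hist1h1e had 745 and 732 UMIs, Hist1h1d 549 and 504, Hist1h1c 537 and 489, and Hist1h1a 333 and 422. Per kb, Hist1h1a had 1019 UMIs, Hist1h1e 765, Hist1h1c 658 and Hist1h1d 142, so their order per kb differed from that by UMIs. Values per kb here and below depend on the annotated length and are not levels of RNA. The annotated transcript of Hist1h1d was 7425 bases long and ran 4884 bases past its stem-loop, which bears on its value per kb.

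Among core histones, Hist1h2ap, an H2A gene, had the most UMIs, 692 in library 1 and 353 in library 2, or 2168 per kb. Its transcript lies wholly in sequence repeated elsewhere, in exact matches of at least 50 bases, so its count is uncertain. The H2A genes Hist1h2ae (534 and 428 UMIs, 1366 per kb), Hist1h2ac (449 and 405, 344 per kb) and Hist1h2ab (286 and 201, 1030 per kb) and the H2B gene Hist1h2bc (530 and 494, 886 per kb) were also among the 15. Hist1h2ac and Hist1h2bc start 251 bp apart and face away from each other over the promoter printed above. Hist1h4d, an H4 gene, had 523 and 319 UMIs (740 per kb), and Hist1h3c, an H3 gene, had 265 and 274 (856 per kb). Hist2h2ac (215 and 178 UMIs), Hist1h3e (172 and 102) and Hist1h2bg (140 and 104) were the last of the 15 genes with the most UMIs. Hist2h2ac and Hist2h2ab end opposite each other, on either side of 1 sequence that fits the stem-loop on both strands.

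**Figure D1:**
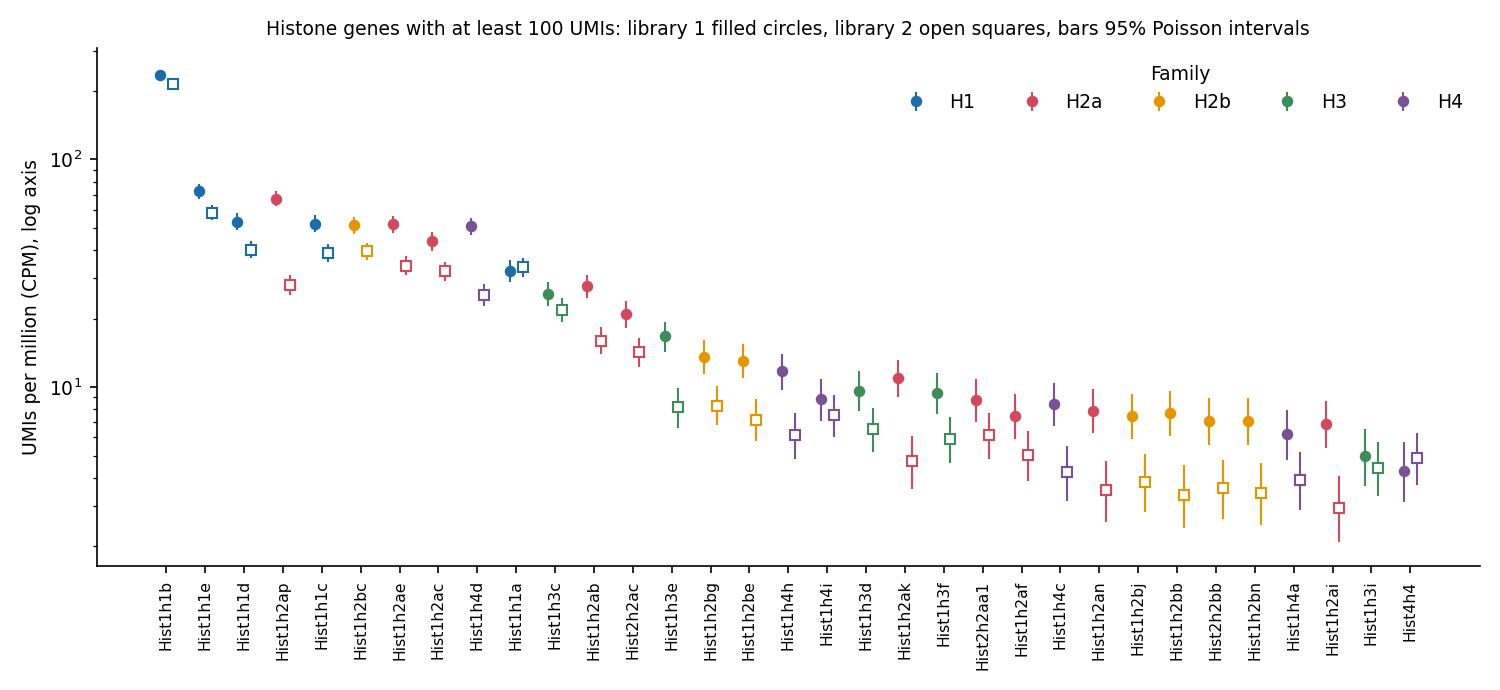
Levels of the 33 histone genes with at least 100 UMIs over both libraries, ordered by UMIs. The vertical axis is CPM on a log scale, filled circles are library 1, open squares library 2, bars 95% Poisson intervals and colours the families. Hist1h1b stands above the others at 234 and 215 CPM.

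The testis-specific histones were at or near 0. Hist1h2aa and Hist1h2ba had 0 UMIs in each library, where a count of 0 allows up to 3 as a one-sided 95% limit, and Hist1h1t had 0 and 1. Hist1h2bq, Hist1h4m and Hist2h2aa2 also had 0 UMIs in each, but 100%, 91.0% and 100% of their transcripts lie in repeated sequence. Reads that match more than 1 gene are not counted by the pipeline, so 0 there does not mean that the gene was silent.

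Median counts were lower in groups of genes with more repeated sequence, and these groups also differed in family. The 14 genes with under 20% of the transcript in repeats had a median of 489.5 UMIs. They included all 6 H1 genes, and the other groups held 0. The core histone genes among the 14 had 854, 842, 224, 118, 78, 59, 41 and 0 UMIs, on both sides of the median of the next group. The 16 genes with 20 to 60% had a median of 117 UMIs and the 37 genes with 60% or more a median of 53. The ranges of these groups all began at 0 and reached 5107, 1024 and 1045 UMIs. Across the 67 genes, UMIs and the repeated share had a Spearman correlation of -0.28, given as a description over genes that share libraries. The parts of family and of repeated sequence in the order of the genes were not tested.

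Open chromatin at histone genes was ordinary in height for gene starts. The 64 histone peaks summed to 163451 counts in library 1 and 165845 in library 2, or 1382 [1373 to 1392] and 1289 ATAC CPM [1280 to 1297]. A peak lay within 1 kb of 60 genes and over the start of 57. The 48 peaks over a histone start had a median of 5786 counts over both libraries, the 14183 peaks over starts of other genes 5010 (quartiles 1542 to 9510), and all peaks 580. The 16 peaks beside starts had a median of 1730. Of the peaks over histone starts, 9 covered 2 starts each, all of H2A and H2B genes that point away from each other. Those 9 had a median of 8162 counts (5757 to 10306), while the 39 over 1 start had 4792 (802 to 20776), and the ranges overlapped.

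The peak with the most counts lay at chr13:23760949-23761871 over the start of Hist1h4a, an H4 gene whose promoter is printed above. It held 10677 counts in library 1 and 10099 in library 2, while Hist1h4a had 64 and 49 UMIs. The next was that of Hist2h4, another H4 gene, with 5219 and 5109 counts, followed by the shared promoter of Hist1h2ac and Hist1h2bc with 5311 and 4995. Hist4h4 (4949 and 5202 counts), Hist3h2a (4536 and 4748), a peak in the body of Hist1h1c (4501 and 4295) and the shared start of Hist1h2an and Hist1h2bp (4283 and 4166) came after these. The last of the 10 highest were Hist2h2bb (4212 and 4214), Hist1h4h (4176 and 4218) and the shared start of Hist1h2ae and Hist1h2bg (4213 and 4177). The peak over the start of Hist1h1b, the gene with the most UMIs, held 1812 and 1954 counts and was thus far from the highest. Over the 57 genes with a peak at the start, UMIs and counts of that peak had a Spearman correlation of 0.39, given as a description.

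The fewest counts over a start were at Hist1h4n (386 and 416), then at the H3 genes Hist2h3c2 (393 and 470) and Hist2h3c1 (507 and 477), where the neighbouring peak over Hist2h2aa2 held 834 and 888. Hist3h2ba followed with 1217 and 1008. Of the bases within 500 of their starts, 99.5% at Hist1h4n and 99.9% at both Hist2h3c genes lie in repeats. At Hist3h2ba the share was 28.2%. The 7 genes with no peak within 1 kb included Hist1h1d, whose nearest peak lay 1168 bp from its start in the deposited annotation, and the testis genes Hist1h2aa and Hist1h2ba. The RefSeq start of Hist1h1d lay 1770 bp from the deposited one, so the lack of a peak is stated for the deposited start only. Peaks near the RefSeq start were not examined. A peak of 371 and 487 counts lay 19 bp from the start of the testis gene Hist1h1t.

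**Figure D2:**
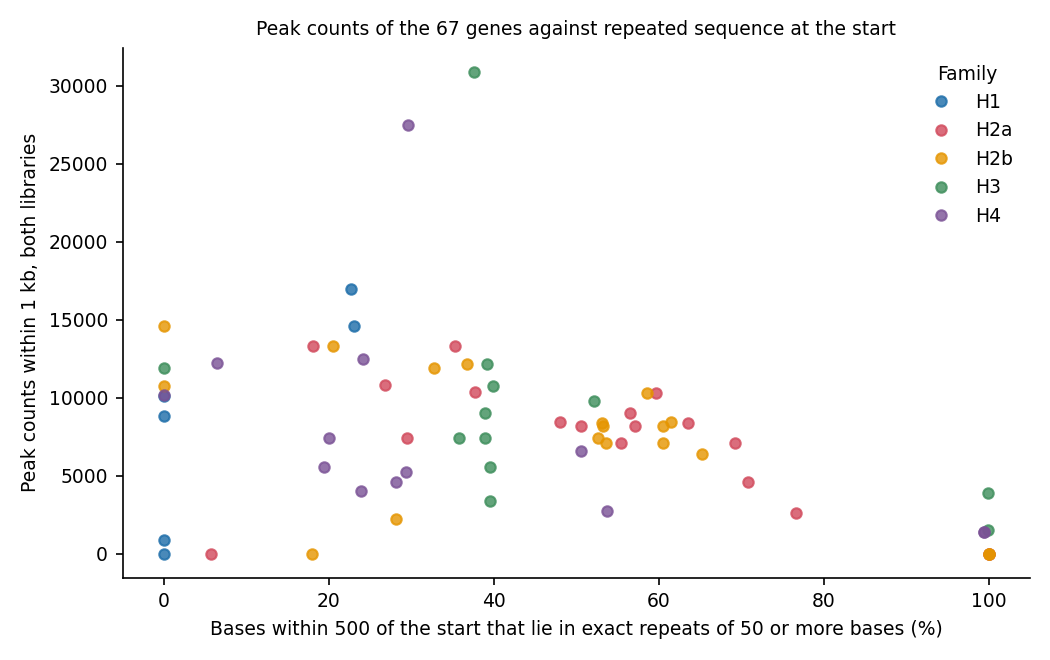
Counts of the peaks within 1 kb of each of the 67 histone genes, summed over both libraries, against the percent of bases within 500 of the start that lie in exact repeats of at least 50 bases. Points are genes and colours are families. Genes with at least 99% of this window repeated have 0 to 3899 counts, and the 2 highest points, Hist1h3a and Hist1h4a, share the highest peak.

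Between the libraries, the share of histone genes past 1.5-fold was close to that of all genes. Over the 10614 genes that reached 20 UMIs in both libraries, the median log2 ratio (library 2 to library 1, in CPM over all genes) was -0.63, and ratios are given relative to it. Of 44 histone genes with that many UMIs, 6 (13.6%) lay past 1.5-fold, beside 17.8% of all genes tested. Hist4h4 (44 and 61 UMIs), Hist1h1a (333 and 422) and Hist1h2bh (26 and 32) were higher in library 2, with relative log2 ratios of 0.82, 0.69 and 0.65. Hist1h2ap (692 and 353), Hist1h2ai (71 and 37) and Hist1h2ak (113 and 59), all H2A genes, were lower, with -0.63, -0.59 and -0.59. As plain CPM ratios, Hist4h4, Hist1h1a and Hist1h2bh had log2 values of 0.19, 0.06 and 0.02. These were small and also above 0, so it is their passing of 1.5-fold that rests on the shift. Of the 64 histone peaks, 0 lay past 1.5-fold, beside 5.16% of 150626 peaks with at least 100 counts in each library. Their log2 ratios, relative to a shift of 0.0543, ran from -0.45 at Hist3h2ba to 0.56 at a peak beside Hist2h3c1.

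Whether histone RNA rises with other RNA of S phase was addressed by the UMIs of 42 S phase genes, such as Pcna and the Mcm genes of the replicative helicase, per nucleus. The list holds no histone gene, and nuclei were thinned to 500 UMIs outside the ribosomal RNA locus, which used 5123 nuclei of library 1 and 6223 of library 2 and left out 782 and 1491 shallower ones. In library 1, nuclei with 0, 1, 2 and at least 3 S phase UMIs had 1420, 1768, 1695 and 1913 histone CPM outside the locus. In library 2 the levels were 1458, 1553, 1518 and 1687. The top bin was higher than the 0 bin in both libraries, and the 2 middle bins did not differ beyond their intervals. The bins pooled all cell types of the mix, and the part of cell type in these levels was not tested. The ratio of the top to the 0 bin was 1.35 [1.23 to 1.48] in library 1 and 1.16 [1.06 to 1.27] in library 2. Without thinning, the ratio in library 2 was 1.0 [0.927 to 1.09], so the difference there was seen with thinning alone.

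The H1 genes followed the sum, with ratios of 1.40 [1.21 to 1.62] and 1.19 [1.05 to 1.35]. Hist1h1b had 1.59 [1.29 to 1.96] and 1.28 [1.08 to 1.52]. The ratios of the H2A genes were 1.39 [1.15 to 1.69] and 1.10 [0.910 to 1.34], those of the H3 genes 1.44 [1.01 to 2.11] and 1.29 [0.906 to 1.86]. For H2B (1.28 and 0.996) and H4 (1.06 and 1.24) the intervals included 1 in both libraries. Of 17 histone genes with at least 20 UMIs in the top and 0 bins together in each library, 1 was at least 1.5-fold higher in both libraries, beside 2.6% of 7033 genes tested. It was Hist1h3e, at 1.74 and 3.02, where the 0 bins held 8 and 3 UMIs and both intervals included 1. The median of the 17 was 1.37 and 1.13, beside 0.999 and 1.07 over all genes tested.

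Histones listed as independent of replication, such as H3f3a, H3f3b, H2afz and H2afy, summed to ratios of 1.01 [0.954 to 1.07] and 1.07 [1.01 to 1.13]. Genes of histone mRNA processing, without Slbp and Casp8ap2, which the S phase list holds, summed to 1.29 [1.14 to 1.47] and 1.14 [1.0 to 1.31]. Within them, Npat, which drives histone transcription, had 2.03 [1.33 to 3.21] and 1.15 [0.763 to 1.78], and Srrt, a cofactor of the nuclear cap, 1.58 [1.19 to 2.13] and 1.28 [0.972 to 1.70]. Of the 10 processing genes with enough UMIs, 0 were at least 1.5-fold higher in both libraries, 6 had ratios above 1 in both, 3 had 1 ratio on either side, and Cpsf2, a cleavage factor subunit, had 0.713 [0.472 to 1.10] and 0.846 [0.534 to 1.37]. G2/M genes summed to 1.59 [1.52 to 1.67] and 1.11 [1.06 to 1.16], so their level moved with the bins as well, and their part in the histone ratios was not tested. Histone peaks had ratios of 1.03 [1.01 to 1.06] and 1.0 [0.982 to 1.03]. Without thinning the ratio in library 1 turned to 0.917 [0.894 to 0.942]. Of the 64 peaks, 0 were at least 1.5-fold higher in both libraries with thinning, beside 1.08% of 100582 peaks. Peaks over starts of other genes had 0.962 and 0.995. With thinning, chromatin access at histone genes thus differed little between the bins in which histone RNA differed.

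**Figure D3:**
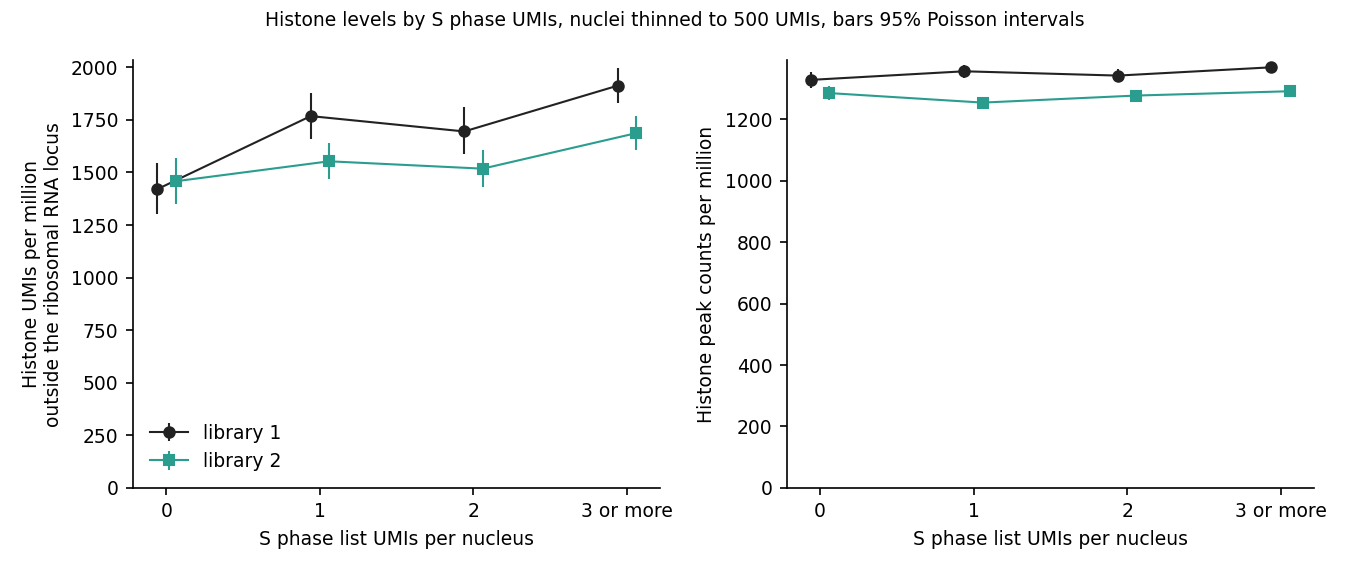
Histone CPM outside the ribosomal RNA locus (left) and histone ATAC CPM (right) by the S phase list UMIs of the nucleus, after thinning to 500 UMIs. Circles are library 1, squares library 2 and bars 95% Poisson intervals. RNA goes from 1420 to 1913 and from 1458 to 1687, while peak counts stay within 1329 to 1370 and 1255 to 1292.

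The level in the populations of HSPCs was described with clusters of RNA and ATAC made without histone genes and histone peaks. Clusters were named from marker genes, with the suffix "-like", and the 13 populations that reached 100 nuclei in both libraries were used, 7 of them named and 6 unnamed. Among these, histone RNA was highest in pro_B-like nuclei, which numbered 1051 and 519 and came from cluster 2, with Ebf1 and Pax5 among its 10 leading genes, and cluster 11, with Rag1 among its own. They had 1645 CPM [1585 to 1706] in library 1 and 1166 CPM [1090 to 1246] in library 2, which is 1.83-fold [1.75 to 1.91] and 1.63-fold [1.52 to 1.75] the level of all other nuclei. The 2 clusters differed. Cluster 2 (802 and 390 nuclei) had 1762 CPM [1696 to 1830] and 1264 CPM [1178 to 1354], which is 1.96-fold [1.88 to 2.05] and 1.77-fold [1.64 to 1.90] the level of nuclei outside the class. Cluster 11 (249 and 129 nuclei) had 883 CPM [767 to 1012] and 617 CPM [481 to 780], 0.984-fold [0.853 to 1.13] and 0.862-fold [0.672 to 1.09]. The height of the class thus rested on cluster 2. Cluster 1, unnamed and led by Nrg1, Stxbp6 and Gpr141, came next with 1257 [1193 to 1324] and 971 CPM [932 to 1012] over all genes. Outside the ribosomal RNA locus, NeuP-like nuclei came next in library 2. They had 2050 CPM [1840 to 2277] there, beside 2010 CPM [1928 to 2093] in cluster 1, with overlapping intervals. Over all genes, the lowest levels were 658 CPM in cluster 3 of library 1 and 522 CPM in cluster 0 of library 2. The highest level was 2.50-fold the lowest in library 1 and 2.23-fold in library 2.

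The other 6 named classes lay below pro_B-like nuclei. HSC-like nuclei had 799 CPM [719 to 885] and 595 CPM [531 to 664], 0.771-fold and 0.794-fold the other nuclei. GMP-like nuclei had 831 and 690 CPM, NeuP-like 1016 and 804 and EryP-like 970 and 704. BaP-like nuclei had 1135 [988 to 1297] and 772 CPM [662 to 895] and MkP-like nuclei 1066 [941 to 1203] and 826 CPM [724 to 938]. Their ratios to the other nuclei, 1.11 and 1.04 for BaP-like and 1.04 and 1.11 for MkP-like, had intervals that included 1. For EryP-like nuclei the ratio to the other nuclei was 0.943 [0.865 to 1.03] and 0.946 [0.847 to 1.05], and for NeuP-like nuclei 0.991 [0.861 to 1.14] and 1.08 [0.972 to 1.21], with intervals that included 1. The NeuP-like value depended on the scale, as genes at the ribosomal RNA locus took 53.6% and 60.8% of its UMIs. Outside the locus, NeuP-like nuclei had 2192 [1907 to 2507] and 2050 CPM [1840 to 2277], 1.22-fold [1.06 to 1.40] and 1.30-fold [1.17 to 1.45] the other nuclei. EryP-like nuclei had 0.903-fold [0.828 to 0.983] and 0.927-fold [0.831 to 1.03] on this scale.

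The S phase list was also highest in pro_B-like nuclei, at 4257 and 2539 CPM, as was the G2/M list at 8864 and 5539 CPM. Cluster 2 of this class had 4670 and 2718 S phase CPM and cluster 11 had 1588 and 1535. Their part in the histone level was not tested. Other populations did not keep the order of the S phase list. Cluster 0 and cluster 1 had 2788 and 2776 S phase CPM in library 1 and 1847 and 1883 in library 2, while histone RNA in cluster 0 was 706 CPM [665 to 750] and 522 CPM [494 to 552], well below the intervals of cluster 1. The G2/M list differed between them, with 2626 and 1977 CPM in cluster 0 and 4423 and 3018 in cluster 1. NeuP-like nuclei had the lowest S phase level of the 7 named classes in both libraries, 1309 and 1332 CPM, while their histone levels of 1016 [884 to 1163] and 804 CPM [721 to 893] were not below those of HSC-like nuclei, whose S phase level was 2207 and 1840. The G2/M level was 3716 and 2639 CPM in NeuP-like and 3484 and 2470 in HSC-like nuclei.

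Chromatin at histone genes had another order. EryP-like nuclei had 1731 [1682 to 1781] and 1646 [1593 to 1701] ATAC CPM over histone peaks, 1.27-fold and 1.29-fold the other nuclei. Pro_B-like nuclei had 1704 [1679 to 1730] and 1674 [1633 to 1716], 1.30-fold and 1.32-fold. Within this class, cluster 2 had 1774 and 1761 ATAC CPM and cluster 11 had 1355 and 1261. Cluster 0 was lowest with 1125 and 1154. Pro_B-like nuclei were thus high and cluster 0 low in both readouts, whereas EryP-like nuclei were above the other nuclei in chromatin and not in RNA. MkP-like nuclei, at 1580 and 1485 ATAC CPM, or 1.15-fold [1.10 to 1.20] and 1.16-fold [1.11 to 1.21], were so as well, with RNA ratios whose intervals included 1. Cluster 1, high in RNA, had 0.870-fold [0.850 to 0.890] and 0.946-fold [0.929 to 0.962] the peak counts of the other nuclei.

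**Figure D4:**
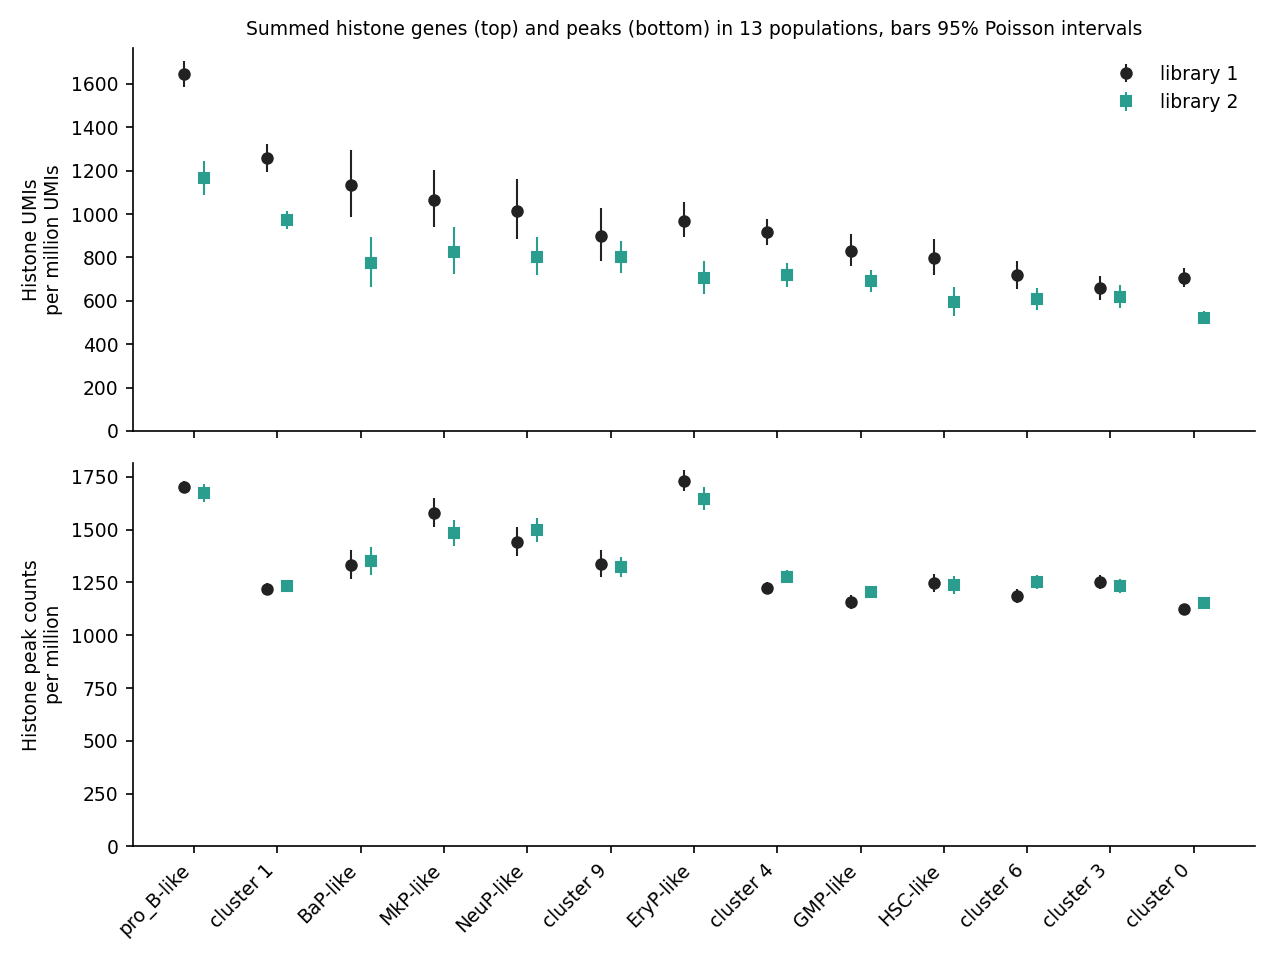
Summed histone CPM (top) and histone ATAC CPM (bottom) in 13 populations, ordered by RNA level. Circles are library 1, squares library 2 and bars 95% Poisson intervals. Of the 13, pro_B-like nuclei are highest in RNA at 1645 and 1166, and pro_B-like and EryP-like nuclei are highest in peak counts.

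Single histone peaks varied between populations about as much as other peaks. Of the 43 with at least 20 counts in each population and library, 9 (20.9%) were at least 2-fold higher in the highest than in the lowest population in both libraries, beside 29.9% of 13814 peaks and 15.8% of 8017 peaks over starts of other genes. Ranked by the smaller of its ratios in the 2 libraries, the peak over the start of Hist1h1b came first. In library 1 it was 25.6 ATAC CPM in the NeuP-like and 7.60 in the GMP-like population, or 3.37-fold, and in library 2 it was 26.3 in the EryP-like and 8.04 in the HSC-like population, or 3.27-fold. The extremes of this peak were thus in different populations in the 2 libraries. The peak of Hist1h3d, an H3 gene, was highest in EryP-like nuclei and lowest in cluster 3 in both libraries, 3.87-fold and 2.64-fold. That of Hist1h1a was highest in EryP-like nuclei as well, with 29.7 and 30.6 ATAC CPM and ratios of 2.59 and 2.36. Hist2h2aa1, an H2A gene, was highest in pro_B-like nuclei, with 20.3 and 22.1 ATAC CPM and ratios of 2.21 and 2.35. Hist2h4 had ratios of 2.10 and 2.20. Picking the highest and the lowest of 13 populations makes these ratios larger than those of a pair fixed beforehand, for histone and other peaks alike.

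Because pro_B-like nuclei stood highest of the 13 populations compared, they were set against all other nuclei gene by gene, a comparison chosen after the values were seen. Of the 44 histone genes that reached 20 UMIs in both libraries, 13 (29.5%) were at least 1.5-fold higher in both libraries, beside 11.1% of 10614 genes tested. The median ratio of the 44 was 1.69 and 1.32, beside 1.04 and 1.07 over all genes tested. The 13 were 3 H1, 4 H2A, 2 H2B, 3 H3 genes and 1 H4 gene. With cluster 2 alone set against nuclei outside the class, 16 of 44 (36.4%) were higher, beside 10.9% of 10582 genes. With cluster 11 alone, which held 208 and 70 histone UMIs, 2 of 42 (4.76%) passed, beside 15.9% of 10400 genes, where a count of 0 was taken as 0.5. One of them, Hist3h2a, had 4 and 0 UMIs in the cluster and the other, Hist1h2ad, had 1 in each library, so at most 1 was observed higher in both. When passing genes with 0 UMIs in the cluster in a library were not counted, 13.7% of the same 10400 genes passed. The ratios below are those of the whole class.

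Among linker histones, Hist1h1b had 442 CPM in pro_B-like and 191 CPM in other nuclei of library 1, a ratio of 2.31 [2.12 to 2.52], and 410 and 203 CPM in library 2, a ratio of 2.03 [1.79 to 2.28]. In cluster 2 alone its ratios were 2.56 [2.35 to 2.79] and 2.26 [2.0 to 2.56], and in cluster 11 alone 0.710 [0.484 to 1.01] and 0.696 [0.397 to 1.13]. The ratio of Hist1h1a was 3.35 [2.67 to 4.18] and 2.31 [1.70 to 3.08], and that of Hist1h1d 2.27 [1.88 to 2.72] and 2.09 [1.56 to 2.75]. Hist1h1e, at 2.37 and 1.46, and Hist1h1c, at 1.68 and 1.33, passed 1.5-fold in library 1 alone. All 5 were thus above 1 in both libraries, with the interval of Hist1h1c in library 2 [0.928 to 1.85] including 1.

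Among core histones, the H3 gene Hist1h3c had ratios of 2.49 [1.91 to 3.23] and 2.08 [1.39 to 3.02], the H2A genes Hist1h2ab 2.26 and 2.24 and Hist1h2ae 1.86 and 1.67, and the H4 gene Hist1h4d 2.08 [1.71 to 2.51] and 1.82 [1.23 to 2.61]. The others that passed in both libraries, Hist1h3b, Hist1h3f, Hist1h2ak, Hist1h2an, Hist1h2bn and Hist1h2bb, are named because the count called them and had between 5 and 33 UMIs in pro_B-like nuclei of a library. The paired genes Hist1h2ac and Hist1h2bc went the other way from the sum. Hist1h2bc had 21.6 CPM in pro_B-like and 57.7 CPM in other nuclei of library 1, a ratio of 0.374 [0.262 to 0.521], and 30.7 and 40.0 CPM in library 2, a ratio of 0.770 [0.483 to 1.17] whose interval included 1. In library 1 the ratio of Hist1h2bc was low in both clusters of the class, 0.364 [0.246 to 0.520] in cluster 2 and 0.442 [0.161 to 0.969] in cluster 11. Hist1h2ac had 0.733 [0.548 to 0.966] and 0.733 [0.430 to 1.17]. Both annotated genes of the pair run past the stem-loop, by 2010 bases in Hist1h2ac and 8246 in Hist1h2bc. Hist1h2bg runs 155 bases past its own. The span in Hist1h2bc is genomic and includes an intron, as its longest annotated transcript has 1156 bases in 2 exons. The stem-loops of both genes of the pair are of the forms printed above. Hist1h1d, which was higher in pro_B-like nuclei, also runs past its own. The part of such runs in these ratios was not tested. Hist1h2br had 0 UMIs in pro_B-like nuclei of either library and 33 and 36 in the others, and its transcript lies wholly in repeats.

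**Figure D5:**
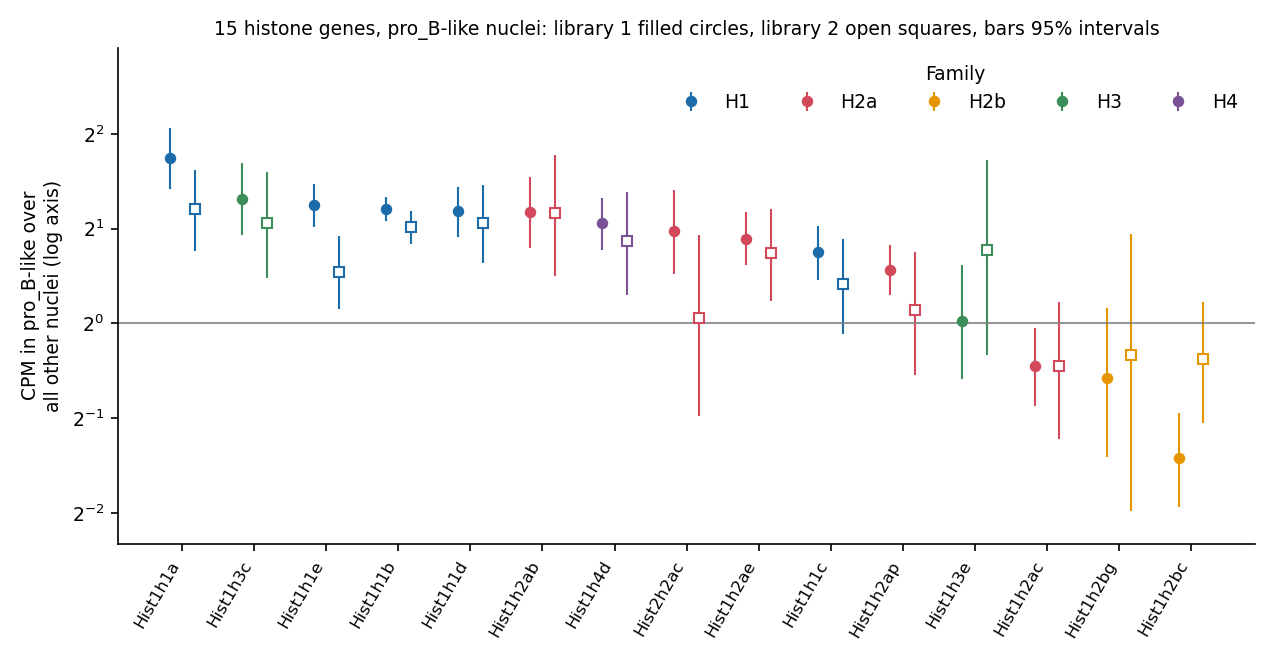
Ratio of CPM in pro_B-like nuclei to that in all other nuclei for the 15 histone genes with the most UMIs, ordered by library 1. The vertical axis is a log scale, filled circles are library 1, open squares library 2, bars 95% intervals and colours the families. Hist1h1a is highest at 3.35 and 2.31, and Hist1h2bc is lowest in library 1 at 0.374.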

How the data were processed

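The authors deposited 1 matrix of raw counts, made with Cell Ranger ARC 2.0.0 on GRCm38 (mm10) per the methods and headers: UMI counts for genes and ATAC counts for peaks. Seurat 4.0.3 and Signac 1.3.0 are named for later steps. Nuclei with at least 200 genes and 1000 to 50000 peak counts were kept. Since 82.7% of nonzero peak entries were even, Poisson intervals of ATAC counts used halved counts. Since every group was 1 sample and suffixes map to none, there was no test.

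Clusters came from 2000 variable genes, 30 RNA components and ATAC components from 2 on, anchors between libraries, weighted nearest neighbours and Louvain resolution 0.8 (Seurat 5.3.0, R 4.3.3), without histone genes and peaks. A name needed at least 3 raised markers and a marker among the top 10 genes. Alternatives were 500 genes, halved ATAC limits, no top 8% of doublet scores, other windows, minima, thinning and clusterings. Doublets were otherwise kept.

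The text names the 15 genes with most UMIs, those past 1.5-fold between libraries, testis histones, and the 10 highest, 5 lowest and 5 most variable peaks. Histone genes, lists and populations were chosen with earlier results of these data known. Folds and intervals were tested on simulated data. Python 3.11.15, scanpy 1.11.5 and BLAST 2.17.0 were used, and repeats were exact matches of at least 50 bases.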

Additional observations from a re-analysis of the deposited data

Results flagged for a closer look

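Histone UMIs were also present in barcodes that the filters left out and no comparison used. In library 1, 2857 such barcodes held 3132 histone UMIs, or 2316 CPM [2236 to 2399] outside the ribosomal RNA locus, above the 1800 CPM of the nuclei kept. In library 2, 2485 barcodes held 1629 histone UMIs, or 1868 CPM [1778 to 1961], above the 1586 CPM of the nuclei kept. The labels put these barcodes in no group.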

How the results depend on the processing

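No paired analysis was possible because each group held 1 sample and no label ties a barcode suffix to a sample. Of the values under alternatives, 40 moved by less than their interval (or 1.5-fold, for counts), 18 moved more and 1 turned. Without the ribosomal RNA locus the histone level was 1800 CPM in library 1 and 1586 in library 2, and with a minimum of 500 genes 796 CPM in library 2. A minimum of 500 genes kept 4169 of 5905 nuclei in library 1 and 1988 of 7714 in library 2, so its values describe smaller sets. Histone ATAC CPM was 1351 and 1322 with that minimum, 1397 in library 1 with limits on halved counts, 1210 and 1125 for peaks over starts and 1577 and 1481 within 5 kb. With minima of 10 and 50 UMIs, 10 of 55 and 2 of 25 histone genes lay past 1.5-fold between libraries, beside 21.6% and 14.9% of all genes. Without thinning, the ratio of histone peak counts between S phase bins was 0.917 in library 1, which turned its direction, and 0.981 in library 2, and that of histone UMIs in library 2 was 1.0. The highest population was 2.95-fold the lowest in RNA of library 1 without correction between libraries, 1.91-fold in library 2 at resolution 0.4, and 1.53-fold in peak counts of library 2 with another arithmetic kernel. The causes were not tested.

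Clusters depended on rounding. With that kernel, an alternative chosen after seeing the data, 77.7% of 13619 nuclei kept their name or cluster number. Cluster numbers are arbitrary, so an unnamed cluster that was renumbered counts as changed. Of the 5781 nuclei in named clusters, 5255 kept their name. Pro_B-like nuclei had the highest histone RNA, among populations that reached 100 nuclei in both libraries, under each of the clusterings run. Under that kernel the class held 812 and 390 nuclei. An unnamed cluster of 240 and 129 nuclei lay outside it at 884 and 617 CPM, close in size and level to cluster 11 of the main clustering. Of the histone genes, 13 to 16 (29.5% to 37.2%) were at least 1.5-fold higher in pro_B-like nuclei, beside 10.5% to 12.1% of all genes. With cluster 11 of the main clustering alone, also chosen after seeing the data, the number was 2, of which 1 had 0 UMIs there in library 2. Low counts limited single genes, as 23 of 67 had under 20 UMIs in a library, for reasons that were not tested.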

Other observations

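Populations too small for the comparison of classes also held histone counts, given here as values. Cluster 18, unnamed and led by Rhd and Sox6, held 86 nuclei in library 1 and 24 in library 2. Its histone peaks had 3730 ATAC CPM [3606 to 3858] and 2113 [1910 to 2332], above those of the 13 populations compared, while its histone RNA was 1029 CPM [864 to 1217] and 723 CPM [484 to 1038]. The cDCP-like nuclei, 67 and 95, had 1673 CPM [1446 to 1925] and 937 CPM [776 to 1122] of histone RNA, beside 1645 [1585 to 1706] and 1166 CPM [1090 to 1246] in pro_B-like nuclei. The cMoP-like nuclei, 66 and 84, had 1463 CPM [1235 to 1720] and 921 CPM [756 to 1111]. Outside the ribosomal RNA locus, these 2 classes had 2997 [2591 to 3449] and 2817 CPM [2378 to 3312] in library 1, beside 2767 [2668 to 2870] in pro_B-like nuclei, so their values lay above that class in library 1, with overlapping intervals. In library 2 they had 2057 and 2108 CPM on this scale, below the 2501 of pro_B-like nuclei. The pDCP-like nuclei, 61 and 31, had 614 CPM [460 to 803] and 371 CPM [203 to 623]. The pro_NKT-like nuclei, 110 and 90, had 717 CPM [586 to 869] and 644 CPM [506 to 809]. The mature_B-like nuclei, 193 and 83, had 961 CPM [825 to 1112] and 747 CPM [570 to 962], below the pro_B-like nuclei as a class, and histone peaks at 1680 [1600 to 1762] and 1675 ATAC CPM [1537 to 1822], with intervals that overlapped those of the pro_B-like class.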
